A study of Ambystoma mexicanum with 5 samples.

Results

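The genes described here are the EGR and NR4A transcription factor families, ARC and IER2, which are immediate early genes, and SRF, a regulator of several of them, measured in the kidney of the axolotl (Ambystoma mexicanum), a salamander. They were found by symbol: 10 symbols matched 11 of the 100758 gene models in the count table, 1 model each except IER2 with 2. EGR4 and ARC were chosen by their large rise in count after gentamicin in these same libraries, so their values are given as a description with no test, and the other 8 symbols were added as relatives with earlier results of these data known. Total RNA came from kidneys of 2 animals injured with gentamicin, an aminoglycoside antibiotic that damages the kidney tubule, and of 3 untreated animals, 1 library per animal for 5 axolotls. The labels number the gentamicin libraries 1 and 3 and the control libraries 1, 2 and 3, and they give no strain, sex or age. Dose and time after treatment are not used here. The comparison is of injured with untreated kidneys.

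Immediate early genes are transcribed within minutes of a growth factor, stress or calcium signal, without new protein synthesis. Mitogen-activated kinases switch on ELK factors and other regulators that sit with SRF on serum response elements, or CREB on cyclic AMP elements, and the mRNAs that follow are short-lived. EGR1 to EGR4 are zinc finger factors that bind GC-rich promoters. NR4A1 to NR4A3 are orphan nuclear receptors whose activity depends mainly on how much of them is made. ARC is best known from neurons, where its mRNA follows synaptic activity. In rodents Egr1 is among the genes that rise early after ischaemic or toxic injury of the kidney.

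The libraries held between 15163723 and 16404879 counts after gentamicin and between 13674201 and 15087765 in controls. A gene with 0 counts may still have up to 3, which was 0.156 to 0.178 CPM (counts scaled to a common library size with TMM factors) after gentamicin and 0.217 to 0.244 CPM in controls. Intervals on counts cover counting error only. All 12 kidney epithelium markers looked up had counts, so the labelled tissue carried its defining genes. Summed marker CPM of some cell types differed between the groups. In bulk RNA fewer cells of a type and less RNA per cell cannot be told apart. Macrophage markers summed to 1582 to 1819.7 CPM after gentamicin and 149 to 216 CPM in controls (9 of 11 tested models higher), with CD163 at 0 counts. Kidney epithelium markers summed to 1876 to 2089 CPM after gentamicin and 6114 to 7889 CPM in controls (10 of 22 lower, 1 higher). Neuron, glia and chromaffin markers summed to 604 to 621 CPM after gentamicin and 919.6 to 1183 CPM in controls (13 of 27 lower, 2 higher). T, NK and B cell markers summed to 101 to 226 CPM after gentamicin and 48.6 to 85.8 CPM in controls (5 of 11 higher), and granulocyte markers to 43.0 to 104 CPM after gentamicin and 16.7 to 63.8 CPM in controls (1 of 4 higher). The sums of the 2 groups overlapped for granulocyte markers, for erythroid markers, at 430.2 to 453 CPM after gentamicin and 302 to 499 CPM in controls (3 of 6 higher, 1 lower), and for 15 vascular models, at 452 to 505 CPM after gentamicin and 398 to 559.8 CPM in controls. Of the vascular models 0 were called in edgeR and 0 in DESeq2, with 1 at an unadjusted p under 0.05. The granulocyte sum of 63.8 CPM was that of control 2, where MPO held 568 counts. MPO held 29 and 55 counts in controls 1 and 3 and 38 and 69 after gentamicin, so the granulocyte overlap leans on this gene in 1 library. Over all genes tested, 13.3% were called higher and 13.4% lower, and nothing is read from the counts of the small lists. Among the models called higher, LCK held 3, 15 and 6 counts in controls and HBA1 held 0 in every control. Without the gentamicin libraries these 2 would not have passed a filter on low counts, so nothing is read from their calls. Among the models called lower, SNAP25 model AMEX60DD024385 held 3 and 7 counts after gentamicin. NEFL model AMEX60DD046377 held 15 and 10, and CUBN model AMEX60DD022113 held 7 and 11. These models passed that filter only through the controls, so nothing is read from their calls either. For some of these lists the marker counts depended on single libraries. For T, NK and B cell markers 1 was higher without gentamicin 1, 3 without control 2 or control 3, and 9 with total-count scaling. For granulocyte markers 0 were higher without control 1 and 2 without control 2 or gentamicin 3. For erythroid markers 1 was higher without control 2 or gentamicin 3, and 0 were lower when any library but control 1 was left out. For kidney markers 0 were higher without either gentamicin library and 3 without control 1. The part these cell types have in the results that follow was not tested.

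Of the 11 gene models, 9 were tested, and both IER2 models had 0 counts in every library. NR4A2, EGR4 and ARC passed the filter on low counts only through the gentamicin libraries, so they had to differ and are described with no test. Of the other 6 models, EGR1, EGR2, EGR3 and NR4A3 were higher in gentamicin kidneys (edgeR quasi-likelihood test, adjusted p under 0.05), while NR4A1 and SRF were not called. Over all 22006 genes tested, 13.3% were called higher, and because the set was assembled with this contrast known nothing is read from the 4 of 6. The calls over all genes were 2931 higher and 2959 lower, or 6192 and 1895 when libraries were scaled to total counts. For 5 of the 6, SRF being the exception, the gentamicin libraries stood above all 3 controls, which 28.6% of all tested genes did, and nothing is read from that count either. The plot of CPM by library shows the 9 models together.

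**Figure D1:**
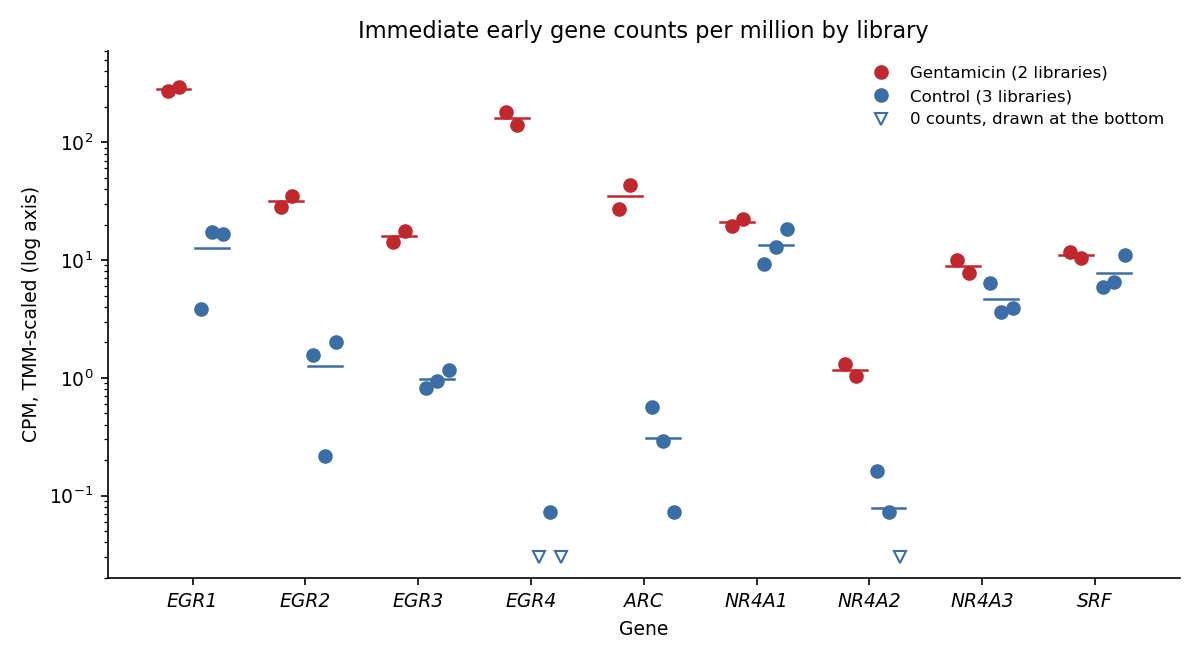
CPM scaled with TMM factors (log axis) for the 9 gene models with counts; each point is 1 library, gentamicin in red left of control in blue, bars are group means, and open triangles are libraries with 0 counts drawn at the bottom of the axis. EGR1, at 272 and 296 CPM after gentamicin, stood highest of the 9, and EGR4 reached 182 and 141 CPM where controls had 1 count in all.

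EGR1, the family's best studied member and a direct target of SRF and ELK factors, was the most abundant of these genes after gentamicin. It had 272 CPM in gentamicin library 1 and 296 CPM in library 3, against 3.83, 17.2 and 16.8 CPM in control libraries 1, 2 and 3. The gentamicin libraries lay close together, and the lower of them was 15.8 times the highest control. The fitted log2 fold change was 4.48 ± 0.67 (SE), or 22.3-fold (95% interval 2.63 to 6.33 on the log2 scale; edgeR adjusted p = 0.0146). Control 1 stood apart from the other controls by more than counting error, with 47 counts (exact Poisson interval 34.5 to 62.5) beside 237 and 233 (208 to 269 and 204 to 265), a spread of 4.50-fold. The fold change kept its sign and size in all 18 alternative analyses (4.05 to 5.00 on the log2 scale), but the adjusted p did not stay under the threshold in 5 of them. It was 0.0508 without control 3, 0.0742 without gentamicin 1, 0.0814 without gentamicin 3, 0.055 with unfiltered counts, and 0.0557 when the label number was a block.

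EGR2, known from hindbrain and Schwann cell development, and also induced in activated lymphocytes and macrophages, had 28.5 and 35.1 CPM after gentamicin. Controls held 1.55, 0.218 and 2.02 CPM, so that the groups did not overlap. The log2 fold change was 4.65 ± 0.59, or 25.1-fold (edgeR adjusted p = 0.00356). Here control 2 was the low one, with 3 counts beside 19 and 28 in controls 1 and 3, although control 2 had the highest EGR1 value of the group. EGR3, which shares targets with EGR2 in lymphocytes, reached 14.2 and 17.6 CPM, against 0.814, 0.945 and 1.16 CPM in controls. Its controls were the most even of the EGR genes, spread 1.42-fold, and its log2 fold change had the narrowest interval, 4.02 ± 0.25 (3.44 to 4.59; 16.2-fold; edgeR adjusted p = 1.65e-05). EGR2 and EGR3 were called in all 18 alternatives.

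EGR4, a family member that in mammals is found mainly in brain and germ cells and is induced in activated T cells, was nearly without reads in controls. It had 3051 and 2712 counts in the gentamicin libraries (182 and 141 CPM), against 0, 1 and 0 counts in the controls. The ratio of summed, scaled counts was 6378 (95% counting interval 1144 to 251943). That interval is wide because the control side rests on a single read, and with control 2 left out the controls held 0 counts. Its flanking named genes were not called. FBXO41 had 31 and 32 counts after gentamicin and 30, 35 and 33 in controls, and ALMS1 had 225 and 274 after gentamicin and 147, 141 and 188 in controls (edgeR adjusted p = 0.314 and 0.43).

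ARC is a cytoskeleton-associated protein derived from the Gag protein of a retrotransposon, which dampens synaptic receptors in neurons of mammals. Its model had 27.1 and 43.3 CPM after gentamicin (456 and 832 counts) and 0.570, 0.291 and 0.0723 CPM in controls (7, 4 and 1 counts). The lower gentamicin library was 47.6 times the highest control, and the gentamicin libraries differed from each other by more than counting error (exact Poisson intervals 415 to 499.8 and 776 to 891 counts). The fitted log2 fold change was 6.83 ± 0.45, or 113-fold, and ran between 6.33 without control 3 and 7.53 without control 1 when single libraries were left out. On the deposited FPKM it was 2.79 with a pseudocount of 1 and 5.39 with a pseudocount of 0.1, which understate the change of a gene this low in controls. Neuron, glia and chromaffin markers, among them the cells in which ARC is best known, were lower for 13 of 27 models, beside 13.4% of all genes tested. Of the 13, SNAP25 model AMEX60DD024385 and NEFL model AMEX60DD046377 passed the filter on low counts only through the controls. The part of the neural markers in the ARC values was not tested. Of these PRPH, a neuronal intermediate filament, had 78.7 ± 5.03 CPM after gentamicin and 163 ± 10.1 CPM in controls, and CHGB, a granule protein of chromaffin cells, 91.6 ± 5.95 CPM after gentamicin and 202 ± 30.7 CPM in controls (SD, n = 2 and 3; edgeR adjusted p = 0.000374 and 0.000994). The neural markers that were higher were a model of the ubiquitin hydrolase UCHL1 and the CHGA model AMEX60DD024290. UCHL1 had 47.9 ± 0.739 CPM after gentamicin and 24.6 ± 1.69 CPM in controls (edgeR adjusted p = 0.000669). That CHGA model had 21.1 ± 0.67 CPM after gentamicin and 2.13 ± 0.699 CPM in controls (edgeR adjusted p = 6.44e-05). The CHGA model with the higher CPM was lower after gentamicin, at 149 ± 15.2 CPM, against 286 ± 45.5 CPM in controls (edgeR adjusted p = 0.00354).

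Of the NR4A receptors that could be tested, NR4A3 was called higher and NR4A1 was not, and differences between these folds and those of the EGR genes were not tested. NR4A1, or NUR77, which is induced in T cells and macrophages on activation, had 19.6 and 22.5 CPM after gentamicin and 9.28, 13.0 and 18.3 CPM in controls. The groups did not overlap, but the lower gentamicin library was 1.07 times the highest control. Its log2 fold change of 0.64 ± 0.26 (95% interval 0.02 to 1.25) was not called (edgeR adjusted p = 0.12). It passed with control 3 left out (0.0205), with libraries scaled to total counts (0.0318) and with unfiltered counts (0.00382). NR4A3, or NOR1, had 9.99 and 7.70 CPM after gentamicin and 6.35, 3.64 and 3.90 CPM in controls. The groups did not overlap, and the log2 fold change was 0.94 ± 0.29, or 1.91-fold (edgeR adjusted p = 0.0474). This call was lost in 10 of 18 alternatives, among them leaving out control 2 (0.122), control 3 (0.118), gentamicin 1 (0.286) or gentamicin 3 (0.115), the block on label numbers (0.0941) and DESeq2 (0.0501). NR4A2, or NURR1, a factor of dopamine neurons, had 22 and 20 counts after gentamicin and 2, 1 and 0 in controls. The ratio of summed scaled counts was 15.5 (95% counting interval 4.95 to 78.1), at a level of only 1.31 and 1.04 CPM in the gentamicin libraries. No test is given for it, since it passed the filter through these libraries alone.

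SRF, the factor that binds serum response elements and through which several of these genes are switched on, had 11.7 and 10.4 CPM after gentamicin, against 5.86, 6.47 and 11.1 CPM in controls. Control 3 lay between the gentamicin libraries, so the groups overlapped. The log2 fold change of 0.50 ± 0.29 (95% interval -0.16 to 1.16) was not called (edgeR adjusted p = 0.24), and it passed in 1 of 18 alternatives, without control 3 (0.0304). Scaling to total counts instead of TMM factors shifts the median of all tested genes by 0.32 on the log2 scale, which the differences of SRF, NR4A1 and NR4A3 have to be read against. The plot of differences sets the 9 models side by side.

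**Figure D2:**
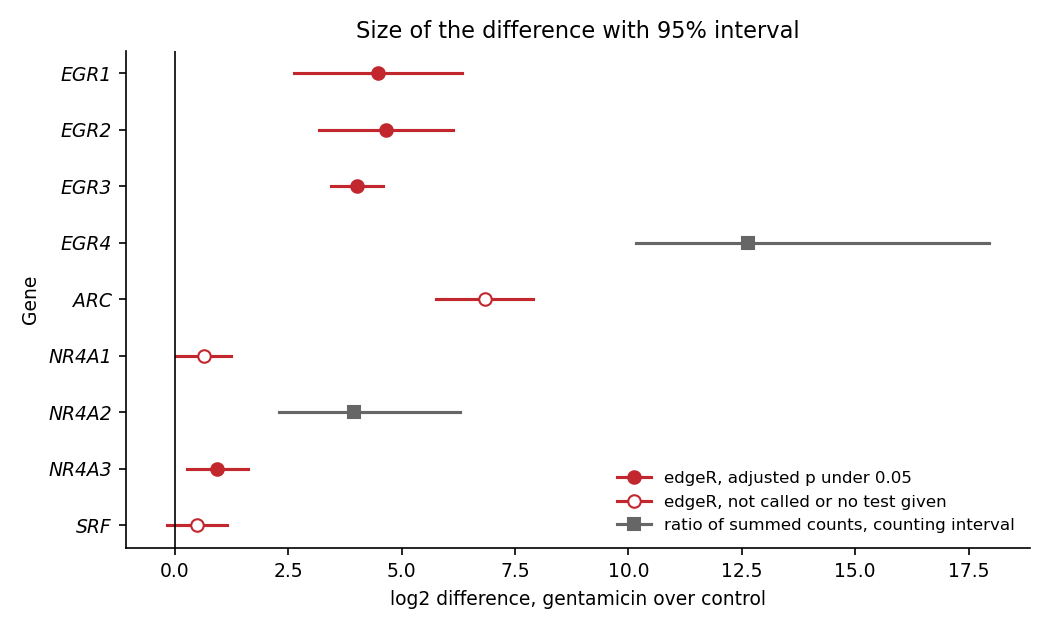
Difference between gentamicin and control libraries on the log2 scale with its 95% interval; circles are edgeR fits, filled where called, and grey squares are ratios of summed scaled counts with counting intervals, used where controls held 1 to 3 counts. EGR1, EGR2 and EGR3 lie between 4.02 and 4.65, NR4A1, NR4A3 and SRF between 0.50 and 0.94, and no call is drawn for EGR4 and ARC, which were picked for their rise.

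IER2, a small nuclear protein that follows serum and stress in mammals, gave no measurement. Its models AMEX60DD032064 and AMEX60DD032065 lie on opposite strands and overlap over 1787 bases, the whole length of the second. Both had 0 counts in all 5 libraries, although the flanking gene STX10 had 1274 and 1201 counts after gentamicin and 1023, 930 and 1135 in controls. Whether reads were counted by strand was not stated in the labels or headers. Of 128 intronless models with a symbol that lie over an opposite-strand model in this way, 71.1% had 0 counts, against 50.9% of 2728 intronless models with a symbol and no such overlap. Over all intronless models, with or without a symbol, the shares were 76.5% of 910 and 76.8% of 53394, so that no difference was seen there. The part of the overlap in the IER2 zeros was not tested, and a zero here does not show that IER2 was silent.

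Levels of different genes can be compared only per length, for which the deposited FPKM (fragments per kilobase of gene, scaled to library size) were used. After gentamicin EGR1 had 93.9 and 102 FPKM, EGR4 36.8 and 28.7, EGR2 8.38 and 10.3, ARC 4.97 and 7.96, NR4A1 5.44 and 6.25, EGR3 2.07 and 2.58, NR4A3 1.93 and 1.49, SRF 0.870 and 0.775, and NR4A2 0.353 and 0.282 FPKM. ARC and NR4A1 overlapped, as did no other neighbours in that order. In controls the order began with EGR1 at 1.32, 5.94 and 5.76 FPKM and NR4A1 at 2.58, 3.60 and 5.03 FPKM, which overlapped, followed by NR4A3 (1.23, 0.702 and 0.749) and SRF (0.437, 0.480 and 0.814), which overlapped as well. EGR2 (0.456, 0.0641 and 0.590) overlapped with SRF and with EGR3 (0.119, 0.138 and 0.167), and ARC, NR4A2 and EGR4 were at 0.105 FPKM or below in every control. Ranked by FPKM among all 100758 models, EGR1 stood at places 494 and 412 after gentamicin and at 13887, 6010 and 6121 in controls. EGR4 stood at places 1165 and 1394 in the gentamicin libraries.

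EGR1 and EGR4 together made up most of the EGR level after gentamicin. EGR1 supplied 66.5% and 71.1% of the summed EGR FPKM after gentamicin and 69.7%, 96.5% and 88.4% in controls, so that its shares overlapped between the groups. EGR4 supplied 26.1% and 19.9% of it in the gentamicin libraries and at most 0.239% in a control. The summed level was 143 ± 2.05 FPKM after gentamicin and 4.86 ± 2.57 FPKM in controls (SD, n = 2 and 3), a ratio of 29.3. For the NR4A family the sum was 7.88 ± 0.211 FPKM after gentamicin and 4.65 ± 1 FPKM in controls, a ratio of 1.69, and NR4A1 supplied most of it in every library (70.4% and 77.9% after gentamicin; 66.9%, 83.3% and 87.0% in controls). Divided within each library, where scaling cancels, EGR stood over NR4A by 18.3 and 17.9 after gentamicin and by 0.493, 1.42 and 1.13 in controls. The groups did not overlap on this ratio, whose members were chosen with the results known, so no test is given.

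**Figure D3:**
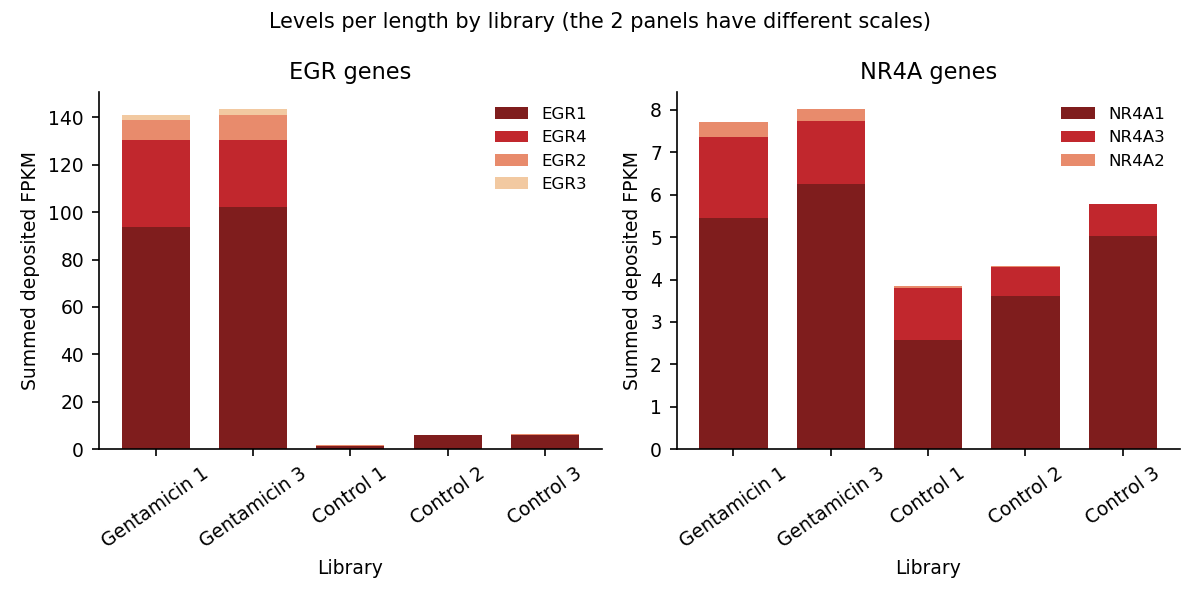
Deposited FPKM of the EGR genes (left) and NR4A genes (right), stacked by gene for each library, with the gentamicin libraries left of the controls; the vertical scales differ. The EGR sums average 143 FPKM after gentamicin and 4.86 FPKM in controls, with EGR4 as a visible share only after gentamicin, while the NR4A sums average 7.88 FPKM after gentamicin and 4.65 FPKM in controls.

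The controls did not vary together across the set. Control 1 was the lowest control for EGR1, EGR3, NR4A1 and SRF and the highest for ARC, NR4A2 and NR4A3. Control 2 was the lowest for EGR2 and NR4A3, and control 3 was the highest for EGR2, EGR3, NR4A1 and SRF and the lowest for ARC. Between the gentamicin libraries, library 3 was the higher for EGR1, EGR2, EGR3, ARC and NR4A1 and library 1 for EGR4, NR4A2, NR4A3 and SRF.

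In the coordinates of the deposited tables, whose build the labels do not name, EGR1 lies on chromosome 3p, 645334170 to 645337999 (plus strand), EGR2 on 8q, 328265268 to 328272434 (minus), and EGR4 on 6q, 1544653545 to 1544658584 (minus). EGR3 is on an unplaced contig, C0040761, at 116412 to 126866 (minus). ARC lies on 5q, 1158331807 to 1158341133 (minus), NR4A1 on 3q, 608220356 to 608291054 (minus), NR4A2 on 9q, 571836809 to 571855574 (plus), NR4A3 on 5q, 86904171 to 87129837 (plus), and SRF on 4q, 1176776796 to 1177342924 (minus). The IER2 models lie on 3q, 1496947355 to 1496949847 (minus) and 1496948061 to 1496949847 (plus). Each model but ARC carries a protein description of its own family, and no model with another name carries one. ARC has no protein description, only a symbol, and its identity is less certain. Its flanking gene ADGRB1 is also near ARC in the RefSeq annotation of another axolotl assembly (UKY_AmexF1_1). For 9 of the 10 symbols at least 1 flanking named gene lies within 5 named genes of the same symbol there, EGR3 being without one. Of the 14 flanking genes tested, TGFB1I1 beside EGR1 and CUL9 beside SRF were higher, by 0.88 and 0.83 on the log2 scale (edgeR adjusted p = 0.0224 and 0.0044). SRF overlaps an opposite-strand model over 8882 bases and NR4A3 one over 239 bases, both with 0 counts. Reads in these shared stretches cannot be told apart without strand.

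The genes most like EGR1, EGR4, ARC and NR4A1 were sought by the distance between log2 CPM profiles over the 5 libraries, each centred on its own mean. The profile nearest to EGR1 was that of TLR3, a receptor for double-stranded RNA, at 13.3 and 13.2 CPM after gentamicin and 0.244, 0.727 and 0.434 CPM in controls (distance 1.10), followed by FOS (1.16) and the metalloproteinase TLL2 (1.17). In all 3, as in EGR1, control 1 was the lowest control, which a choice by nearness over the same libraries favours. TLR3 held 3 counts in control 1, and FOS held 5, 12 and 11 counts in controls 1, 2 and 3. The order of the controls therefore rests on few counts in these genes. The nearest to EGR4 was FOSL1, at a distance of 2.39, followed by an HSPA8 heat shock model (2.95) and GPNMB (3.43). ARC was nearest to a model named MMP7, whose identity is uncertain (1.64), GPNMB (1.66) and CFP (1.80). NR4A1 lay nearest to FBN2 (0.12), HOMER1 (0.15) and BUB1 (0.15). HOMER1 had at most 0.884 CPM in any library and the HSPA8 model at most 0.218 CPM in controls, so these values rest on few counts. The distances describe 5 libraries in 2 groups and were not tested.

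The wider early response was read from 7 lists of genes around these, of which 49 of 133 tested models were higher and 7 lower, with a median log2 fold change of 0.01 over all tested genes, of which 13.3% were higher and 13.4% lower. Of the 49, 4 passed the filter on low counts only through the gentamicin libraries, 2 of them in the AP-1 list, 1 among the other early genes and 1 among the EGR1 targets. Among the 7 lower, actin model AMEX60DD025715 passed that filter only through the controls. The lists were chosen with earlier results of these data known. In the AP-1 family, 7 of 8 tested models were higher (median log2 fold change 2.73). FOSL1 and FOSB, 2 of the 7, passed the filter on low counts only through the gentamicin libraries, so they had to differ. The median of 2.73 includes both, and nothing is read from it. FOSL1 had 221 ± 88.1 CPM after gentamicin and 0.362 ± 0.289 CPM in controls (SD, n = 2 and 3). Its controls held 8, 1 and 5 counts, and no test is given for it. FOS had 28.3 ± 2.61 CPM after gentamicin and 0.691 ± 0.249 CPM in controls. JUNB had 105 ± 1.65 CPM after gentamicin and 10.8 ± 3.04 CPM in controls (edgeR adjusted p = 5.29e-06 for FOS and 4.18e-05 for JUNB). Of 37 other early genes, 21 were higher, with a median of 0.82. ATF3, a stress-induced repressor, had 24.4 ± 1.10 CPM after gentamicin and 1.27 ± 0.468 CPM in controls. TNFAIP3, an inhibitor of NF-kB signalling, had 72.1 ± 0.933 CPM after gentamicin and 21.0 ± 3.22 CPM in controls, and the zinc finger repressor KLF10 145 ± 10.7 CPM after gentamicin and 45.9 ± 8.04 CPM in controls (in that order, edgeR adjusted p = 1.68e-05, 6.58e-05 and 0.000136). The gene of that list with the highest mean CPM, the kinase SGK1, stood at 434 ± 85.7 CPM after gentamicin and 462 ± 70.9 CPM in controls (edgeR adjusted p = 0.748). Without gentamicin 1, or without gentamicin 3, 12 of the other early genes were higher.

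Of 31 tested models of kinases and factors that act upstream, 6 were higher and 1 lower, with a median log2 fold change of 0.15, and the share higher lies near the 13.3% of all genes. RPS6KA3, an ERK-activated kinase that phosphorylates CREB, had 89.2 ± 5.82 CPM after gentamicin and 55.5 ± 4.38 CPM in controls, and MEF2C, a relative of SRF that acts in muscle and immune cells, 37.6 ± 1.06 CPM after gentamicin and 21.3 ± 3.30 CPM in controls (SD, n = 2 and 3; edgeR adjusted p = 0.00357 and 0.00507). RPS6KA4, or MSK2, was higher by 0.56 on the log2 scale and RPS6KA2 differed by -1.34 (edgeR adjusted p = 0.00993 and 0.0187). The gene with the highest mean CPM, MAPK3, or ERK1, had 334 ± 16.8 CPM after gentamicin and 303 ± 9 CPM in controls (edgeR adjusted p = 0.389, and 0.0129 with total-count scaling). The number higher was 3 without gentamicin 1 and 1 without gentamicin 3, with RPS6KA2 lost in both, and MEF2C and RPS6KA4 lost without gentamicin 3 (0.0562 and 0.111). Scaled to total counts, 16 were higher.

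Of 13 tested models of feedback inhibitors of ERK signalling, 3 were higher and 2 lower (median 0.04). Beside the 13.3% higher and 13.4% lower of all genes tested, these counts are not a result about the list. DUSP5, a nuclear phosphatase that ERK signalling induces and that inactivates ERK, had 50.2 ± 6.58 CPM after gentamicin and 4.16 ± 0.577 CPM in controls, a log2 fold change of 3.59 (edgeR adjusted p = 4.77e-06). DUSP1 was higher by 0.91 and SPRED1 by 0.60 (edgeR adjusted p = 0.00814 and 0.00701). SPRY4 and SPRY1, Sprouty inhibitors of receptor tyrosine kinases, differed by -0.43 and -0.58 (edgeR adjusted p = 0.0324 and 0.0328), and each of these calls was lost in 8 of 18 alternatives, total-count scaling included (0.555 and 0.232). DUSP1 was not called without gentamicin 1 (0.0982), nor SPRED1 without gentamicin 3 (0.0836). With gentamicin 1 left out the counts were 2 higher and 1 lower, and with gentamicin 3 left out 2 and 0; the number lower was 0 without control 2 and 1 without control 3.

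The partners of EGR and NR4A proteins had 0 calls among 4 models. NAB2, a corepressor that binds EGR factors and is induced by them in mammals, had 7.37 ± 1.34 CPM after gentamicin and 7.41 ± 0.829 CPM in controls (SD, n = 2 and 3). Their log2 fold change was -0.01, with a 95% interval of -0.51 to 0.50. Its relative NAB1 had 8.54 ± 1.82 CPM after gentamicin and 7.28 ± 2.08 CPM in controls (interval -0.41 to 0.87). Of the retinoid X receptors, with which NR4A1 and NR4A2 pair, RXRA and RXRB were measured. No gene model was found by the symbol RXRG. RXRA had 28.0 ± 1.46 CPM after gentamicin and 40.1 ± 10.6 CPM in controls (interval -1.05 to 0.02), and RXRB 61.7 ± 5.82 CPM after gentamicin and 68.2 ± 6.55 CPM in controls (interval -0.44 to 0.16). In edgeR 0 of these 4 models passed, 0 had an unadjusted p under 0.05, and 0 were called by DESeq2. In edgeR, 1 was lower without control 3 and 1 with unfiltered counts.

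Of 13 tested models of genes described as EGR1 targets in mammals, 3 were higher and 3 lower, with a median of 0.10. Beside the 13.3% higher and 13.4% lower of all genes, these counts are not a result about the list. THBS1, the matrix protein thrombospondin 1, had 652 ± 21.5 CPM after gentamicin and 262 ± 8.22 CPM in controls (SD, n = 2 and 3; edgeR adjusted p = 7.22e-05). The cytokine TNF, 1 of the 3 higher, had 6.74 ± 1.07 CPM after gentamicin and 0.245 ± 0.292 CPM in controls. With 1, 8 and 1 counts in controls, TNF passed the filter on low counts only through the gentamicin libraries, and no test is given for it. The models that differed the other way were the VEGF receptor FLT1, at 89.3 ± 4.4 CPM after gentamicin and 131 ± 6.59 CPM in controls, and 2 models of VEGFA, by -0.64 and -0.63 (edgeR adjusted p = 0.00773, 0.0118 and 0.0392). The number lower was 0 without gentamicin 1, 1 without gentamicin 3 and 0 with total-count scaling, and 5 were higher with that scaling. VEGFA model AMEX60DD025282 was not called without control 1 or control 2 (0.0736 and 0.0976).

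Cytoskeletal genes that SRF controls in mammals were higher in 9 of 27 tested models and lower in 1 (median 0.40). Over all genes tested, 13.3% were higher and 13.4% lower. Since the list was chosen with earlier results known, nothing is read from its counts. CNN2, or calponin 2, had 70.1 ± 5.63 CPM after gentamicin and 30.1 ± 7.38 CPM in controls, the nonmuscle myosin MYH9 807 ± 20.3 CPM after gentamicin and 546 ± 13.4 CPM in controls, and TPM1, a tropomyosin, 269.6 ± 33.2 CPM after gentamicin and 148 ± 29.5 CPM in controls (SD, n = 2 and 3; edgeR adjusted p = 0.00267, 0.00647 and 0.00785). The model with the highest mean CPM, ACTG1 model AMEX60DD025725, had 7553 ± 352 CPM after gentamicin and 5428 ± 308 CPM in controls (edgeR adjusted p = 0.0286). ACTG1 did not pass when any 1 library was left out (0.0554 to 0.0992), nor TPM1 without gentamicin 1 (0.0861). The lower model, AMEX60DD025715, is named for both ACTG1 and ACTB. It held 0 counts in both gentamicin libraries and 1, 15 and 11 in controls. This model passed the filter on low counts only through the controls, so it had to differ and nothing is read from its call. It is 1 of several models with an actin symbol, and how reads were divided between them was not tested. Without gentamicin 1, or without gentamicin 3, 3 models were higher. The plot of list values shows the 7 lists together with the members.

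**Figure D4:**
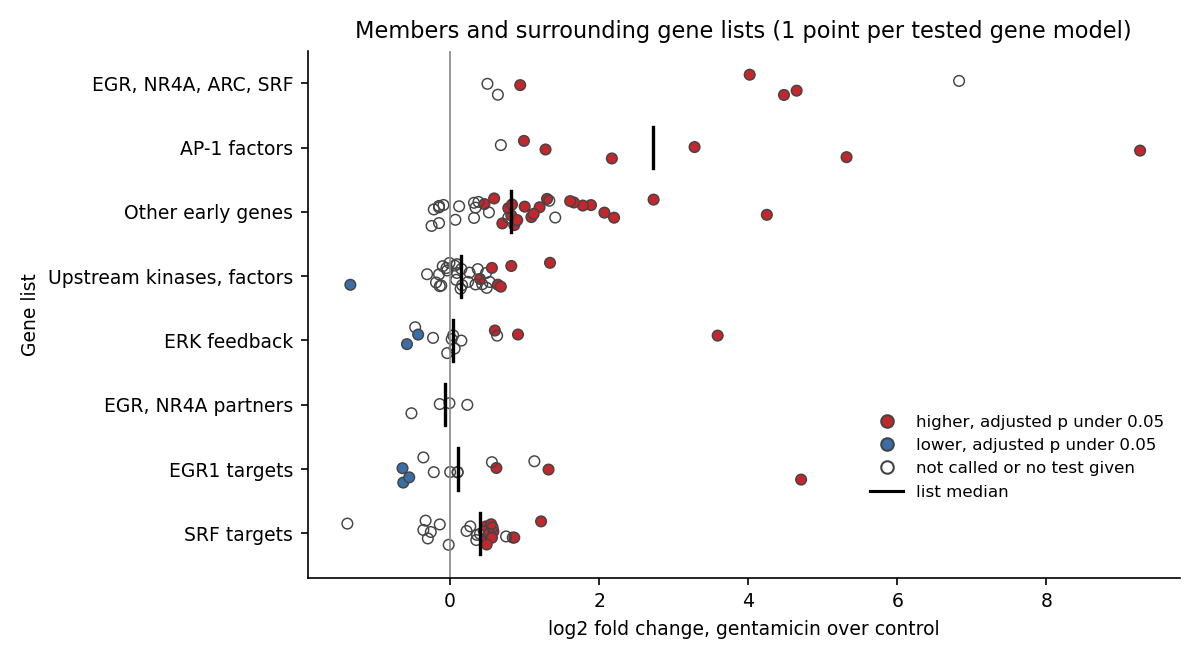
Log2 fold change, gentamicin over control, of each tested gene model in the set (top) and in the 7 surrounding lists, filled red where higher and blue where lower at an adjusted p under 0.05, with the median of each list as a bar; EGR4, NR4A2 and 3 listed models with 3 counts or fewer in a group are not drawn. The red points include FOSL1, TNF and CCN2 model AMEX60DD027636. These models passed the filter on low counts only through the gentamicin libraries, so nothing is read from their fill. The list medians include these models and FOSB, and nothing is read from the AP-1 median. The AP-1 median is 2.73, that of the other early genes 0.82, and those of the ERK feedback genes and of the partners 0.04 and -0.07.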

How the data were processed

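The authors deposited 2 tables of 100758 gene models whose names are exchanged. The authors' raw counts of reads per gene (100% of values whole) are in the table named for FPKM. The authors' FPKM are in the table named for counts, each equal to count over length and library total times 1 factor per library (0.8835 and 0.8387 for gentamicin, 1.0943, 1.0735 and 1.0453 for controls). Tools listed in the submitters' processing notes are HISAT2 2.0.5, featureCounts 1.5.0-p3, fastp, CASAVA 2.19 and DESeq2 1.20.0. Neither the genome build nor the strand setting is given in the sources used here. Per the labels' protocols, RNA was isolated with TRIzol and libraries made with an NEBNext Ultra kit.

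Counts were fitted with edgeR 4.0.16 in R 4.3.3 (filterByExpr with a minimum count of 10 and total of 15, TMM, robust quasi-likelihood, group as the only term, two-sided, Benjamini-Hochberg over 22006 genes; called under 0.05), after tests on simulated data. Standard errors are the log2 fold change over the root of F. Likeness used log2 CPM with a prior count of 2. Alternatives were DESeq2 1.42.0, limma 3.58.1 (voom, and on log2 FPKM with pseudocounts of 1 and 0.1, mean FPKM 0.5 or above, or unfiltered), other scalings and filters, removal of genes above 1% of a library, the label number as a block, summed gene models, and each library left out. Members and lists were chosen with earlier results of these data known. Named genes are all members and, per list, up to 3 called genes by p in each direction and the gene with the highest mean CPM. NAB1, NAB2, RXRA and the flanking genes were added after values were seen, and marker genes are given mostly as sums. The result of 1 listed gene is not reported here.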

Additional observations from a re-analysis of the deposited data

How the results depend on the processing

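Of the 6 members not picked that met the filter through the controls, 4 were higher, beside 13.3% of all genes tested. Nothing is read from this share. The alternatives were counted over all 7 tested members not picked for their rise, of which 5 were higher in the main fit. The 7 include NR4A2, which passed only through its gentamicin counts and had to differ. Nothing is read from its part in the count. The count was 2 with the label number as a block and 3 in each of the limma fits on FPKM, and it ran from 2 to 5 over the fits that left out 1 library. In the surrounding lists 49 models were higher and 7 lower. Left-out libraries gave 26 to 45 higher and 1 to 7 lower, total-count scaling 74 and 2, unfiltered FPKM 28 and 1, and the block 38 and 2; the filtered FPKM fits gave 3 lower with either pseudocount. Fewer samples leave less to estimate the spread from; other causes were not tested. Deviations of libraries with the same label number correlated at -0.04 and 0.06, and those with different numbers at -0.1 to 0.1. With 2 gentamicin libraries their deviations are mirror images, so this check cannot decide whether the numbers pair the animals. Summing the gene models of a symbol turned an actin model named for both ACTG1 and ACTB to 0.44 on the log2 scale, where it was summed with the ACTG1 models, and a UMOD model to -0.01. For EGR4 the fitted log2 fold change ran from 5.06 on log2(FPKM + 1) to 14.29 without control 2, because the control level is 1 read. Of 958 values of other named genes under alternatives, 853 kept direction and side of the threshold, 101 lost a call and 2 gained one. Over all genes the calls were 1333 higher and 1739 lower without gentamicin 1, 1368 and 1627 without gentamicin 3, and 1796 and 1828 on unfiltered FPKM.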
